A study of Mus musculus with 4 samples.

Results

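The cadherin and protocadherin genes were followed across the cell classes of the mouse posterior substantia innominata, a basal forebrain region below the striatum. Members were all genes whose symbol is Cdh followed by digits or begins with Pcdh and whose identifier was listed in all 4 libraries, which gave 92 of 31899 genes. The study profiled single nuclei by droplet RNA sequencing to measure sex differences in neurons of this region. Its 2 male and 2 female libraries came from microdissected tissue of wild-type mice aged 8 weeks. All 4 libraries share the wild-type genotype, the region and the age, and no agent or treatment is named. The strain, the number of mice per library and whether the libraries of one sex came from separate mice are not given in the labels, so the p-values below reflect the scatter of these libraries alone, which may be technical.

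Cadherins are transmembrane proteins that join neighbouring cells through extracellular repeats that bind calcium. Classical cadherins, of type I and type II, bind the same or related cadherins on the facing cell and are tied to actin through catenins, and different neuron groups carry different type II members. Protocadherins are the largest branch of the superfamily: the delta-1 and delta-2 members are single genes, whereas the clustered Pcdha, Pcdhb and Pcdhg genes lie in tandem and are chosen in combinations by which a neuron tells its own branches from those of others. The members held 57 clustered protocadherins, of which 14 are Pcdha, 22 Pcdhb and 21 Pcdhg genes. The other members were 13 type II and 5 type I classical cadherins, 5 other cadherins, 4 delta-1, 5 delta-2 and 3 other nonclustered protocadherins. In GENCODE (GRCm38), 60 members lie on chromosome 18 and 8 on chromosome 8, and the rest are on chromosomes 1, 2, 3, 4, 5, 10, 14, 15 and X.

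The deposited counts of unique molecular identifiers (UMIs) summed to 158132452 and 144035342 in male 1 and male 2, and to 53098268 and 53679351 in female 1 and female 2. Kept nuclei numbered 8829, 8577, 10881 and 10581 in that order, with median UMIs of 10406, 10015, 4192 and 3806, so depth moved with sex and cannot be told apart from it. The length of the gene list and the software version were the same in both males and different in each female, and they also differed between the females. Their part cannot be told apart from sex either. The males shared 23 cell barcodes and the females 35, and none was shared between the sexes. Nuclei were classed by UMIs of genes that are no members: cholinergic by Chat and Slc5a7, Gad by Gad1 and Gad2, glutamatergic by Slc17a6 or by Slc17a7, astrocyte by Gja1 and Aqp4, oligodendrocyte by Mog and Mag, oligodendrocyte precursor (OPC) by Pdgfra and Cspg4, and microglia by Inpp5d and Csf1r. Summed levels of further markers were higher in every library of their own class than in any library of the other 6 classes, Slc17a7 left out, for cholinergic, Slc17a6, astrocyte, oligodendrocyte, OPC and microglia nuclei. The 5 further GABAergic markers, however, reached 667 CPM (counts per 1000000 UMIs of the class) in astrocytes against 232 to 515 in the Gad class. With Slc17a6 itself included, the markers of the Slc17a6 class summed to 1287, 1070 and 1325 CPM in Slc17a7 nuclei of male 1, male 2 and female 2. In Slc17a6 nuclei of those libraries they summed to 914, 764 and 1092, so they do not set these classes apart. The 4 neuron markers Snap25, Syt1, Rbfox3 and Meg3 summed to 2171 to 8747 CPM in the glial classes and 13798 to 21331 in the neuron classes, so glial classes held neuronal transcripts. The Slc17a7 class had 36, 27, 2 and 22 nuclei and the Sst subclass 40, 37, 5 and 48, so both were tested without female 1.

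Cdh19 and Cdh20 were higher in astrocytes, oligodendrocytes and OPCs and lower in 3 neuron classes, and 6 cadherins and Pcdha11 were higher in both Gad and Slc17a6 neurons. Other members crossed the line between glia and neurons: Cdh6 was higher in OPCs and cholinergic neurons and lower in astrocytes, and Pcdh15 was higher in OPCs and Slc17a6 neurons and lower in astrocytes and microglia. Levels below are such CPM, and library values are in the order male 1, male 2, female 1, female 2. Of 92 members, 31 had at least 1000 UMIs over 7 classes, and their highest mean level was in OPCs for 10, astrocytes for 6, Gad nuclei for 5, cholinergic neurons for 4, Slc17a6 neurons for 3, microglia for 2 and oligodendrocytes for 1. The highest class was the same in all 4 libraries for 14 of the 31. The edgeR quasi-likelihood fit over 7 classes tested the 30 members that passed its filter on low counts. A member was called in a class when its adjusted p (Benjamini-Hochberg over all 12407 genes tested, written below as edgeR adjusted p) was under 0.05 and its log2 fold against the mean of the other classes was at least 1 in size. Members that passed the filter only through a class where they are high had to differ, so counts over the tested members are descriptions. By the rule 26 of 30 members were called in at least 1 class, 20 were higher in at least 1, and 16 were called in both directions. Cdh20 was called in all 7 classes. The 4 called in none were Pcdh1, Pcdh8, Pcdh19 and Pcdhga12.

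**Figure D1:**
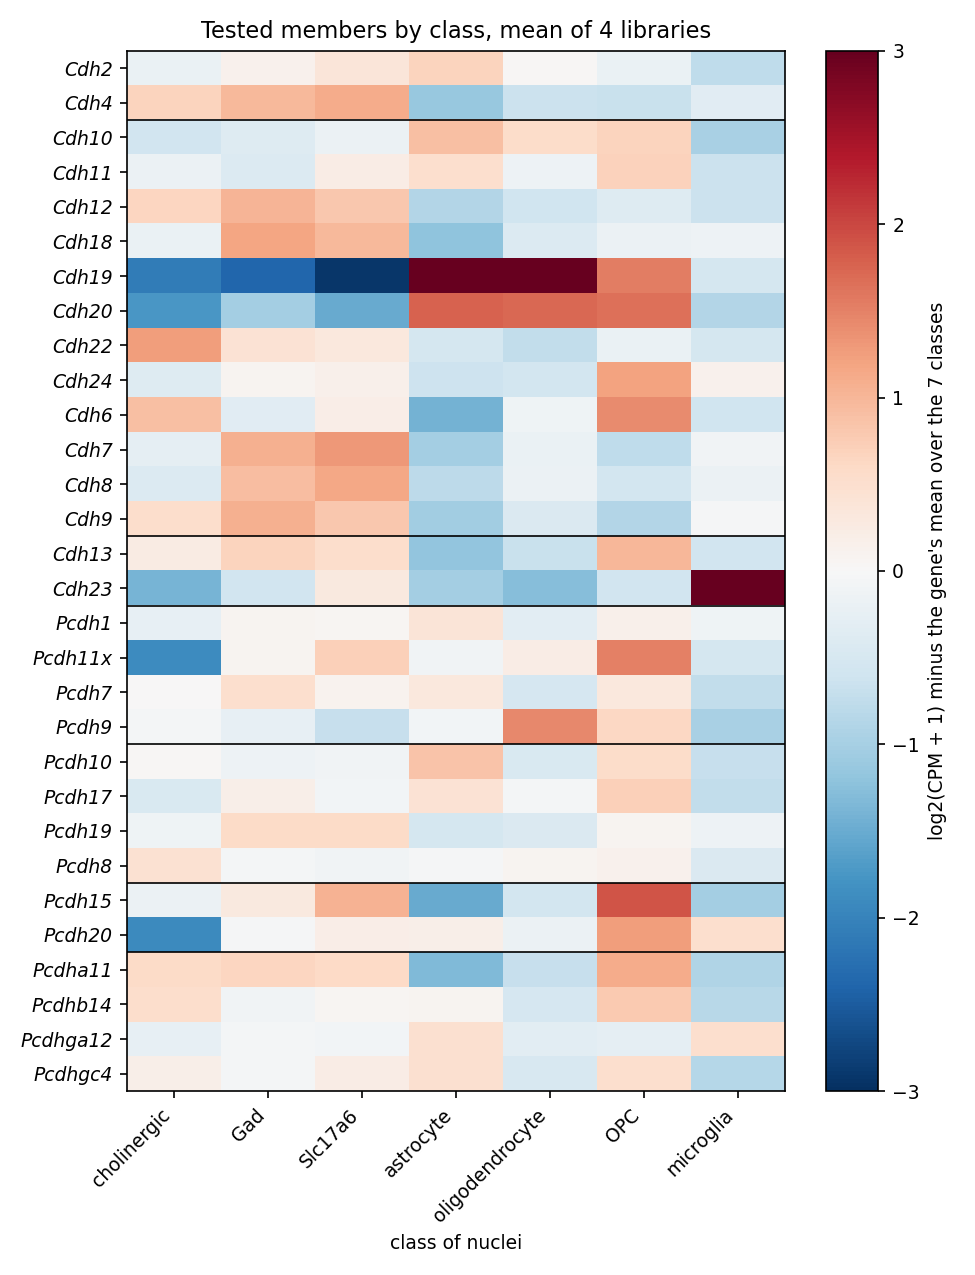
Levels of the 30 tested members (rows, grouped by family, black lines between families) in 7 classes (columns), as log2(CPM + 1) of the mean over 4 libraries minus the gene's mean over the classes, with colour capped at ±3. Cdh19 and Cdh20 stand high in the 3 macroglial classes, Cdh23 in microglia, and Cdh7, Cdh8, Cdh9 and Cdh18 in Gad and Slc17a6 neurons.

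With the mean level in the highest class divided by gene span, the highest member was Pcdh9 at 13.5 CPM per kb in oligodendrocytes. Cdh19 followed at 4.69 in astrocytes, Cdh10 at 4.41 in astrocytes, Pcdh10 at 4.02 in astrocytes and Pcdh7 at 3.90 in Gad nuclei. Cdh12 reached 0.179 CPM per kb in its highest class, the Gad class, from 204 CPM over a span of 1140 kb. Nuclear RNA is largely unspliced, and whether introns were counted is not stated in the sources used here. The order thus depends on the span as well as the level, and the division does not put different genes on a common scale. Undivided, Pcdh15 reached 3810 CPM in OPCs, and Pcdh7 and Cdh18 reached 1620 and 1451 in Gad nuclei. Cdh19 reached 419 in astrocytes.

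In glia, 2 type II cadherins of chromosome 1 stood out. Cdh19 was 16.1-fold higher in astrocytes and 14.1-fold higher in oligodendrocytes than in the mean of the other classes, and Cdh20, on the same chromosome, was 4.37-fold and 4.12-fold higher. Both were also higher in OPCs and lower in the 3 neuron classes. Cdh19 and Cdh20 encode classical cadherins of type II, and Cdh19 is known from the Schwann cell lineage. Cdh7 lies between them, 4986.95 kb from Cdh20 and 748.169 kb from Cdh19, and was called higher in Gad and Slc17a6 neurons and lower in astrocytes, with no call in cholinergic neurons (log2 fold -0.15). The RefSeq promoters of Cdh20, Cdh7 and Cdh10, a further type II member, are shown because these genes were called in astrocytes, Cdh20 and Cdh10 higher and Cdh7 lower. They are the 250 bases before the start in RefSeq (GRCm38.p6), printed 5′ to 3′ on the gene's strand, with CG dinucleotides in capitals; Cdh7 has 3 starts in that table, of which the first is shown. The Cdh7 and Cdh10 windows lie inside the gene spans of GENCODE, whose first bases are 109982431 and 18818947.
Cdh20, chr1:104768270-104768519, plus strand: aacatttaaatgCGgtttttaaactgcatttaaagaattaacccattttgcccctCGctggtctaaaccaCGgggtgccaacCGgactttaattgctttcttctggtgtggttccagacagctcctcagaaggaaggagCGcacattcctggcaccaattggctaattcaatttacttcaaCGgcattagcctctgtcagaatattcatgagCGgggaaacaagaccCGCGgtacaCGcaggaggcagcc
Cdh7, chr1:109982650-109982899, plus strand: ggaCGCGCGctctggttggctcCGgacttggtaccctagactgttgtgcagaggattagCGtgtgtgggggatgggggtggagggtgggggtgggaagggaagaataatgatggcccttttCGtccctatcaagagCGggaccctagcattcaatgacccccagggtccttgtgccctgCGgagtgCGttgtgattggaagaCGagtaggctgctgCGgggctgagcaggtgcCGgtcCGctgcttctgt
Cdh10, chr15:18820079-18820328, plus strand: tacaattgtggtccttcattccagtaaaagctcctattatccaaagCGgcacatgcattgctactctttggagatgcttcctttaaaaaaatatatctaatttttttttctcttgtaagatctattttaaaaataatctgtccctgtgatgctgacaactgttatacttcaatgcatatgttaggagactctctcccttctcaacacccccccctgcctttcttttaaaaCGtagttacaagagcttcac
The Cdh20 window held 10 CG dinucleotides, that of Cdh7 13 and that of Cdh10 2, against a median of 6 over 32851 such windows of all genes. The GC content of the windows was 47.6%, 60.8% and 36.8% in the same order, with a median of 52.4% over all windows. None of the 3 held TATAAA, searched on both strands, which 12.37% of all windows held.

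Cdh19 was at 432, 488, 295 and 459 CPM in astrocytes and at 430.4, 413, 357 and 310.2 in oligodendrocytes. It was at 186, 172, 53.8 and 90.4 in OPCs, at 5.54, 5.46, 11.3 and 7.05 in Gad nuclei and at 2.88, 4.49, 4.58 and 7.25 in Slc17a6 neurons. Every astrocyte and oligodendrocyte library was above every OPC library, and every OPC library was above every neuron library. Its log2 fold was 4.01 ± 0.20 (SE; edgeR adjusted p = 2.11e-17) in astrocytes, 3.82 ± 0.18 (SE; edgeR adjusted p = 1.81e-18) in oligodendrocytes and 2.01 ± 0.26 (SE; edgeR adjusted p = 1.14e-07) in OPCs. With the females alone the OPC value was 0.99, under the fold limit. The OPC libraries of the males were above those of the females, but this sex difference did not pass the test, as given below.

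Cdh20 was at 630.3, 566, 838 and 425 CPM in astrocytes, 596, 607, 731 and 414 in oligodendrocytes and 664, 559, 582 and 446 in OPCs. It was at 74.2, 77.4, 115 and 85.7 in Gad nuclei and 51.8, 21.7, 94.9 and 41.9 in cholinergic neurons. The 3 macroglial classes overlapped one another and lay above every neuron library, so the order among them is not resolved. Its log2 folds were 2.13 ± 0.13 (SE; edgeR adjusted p = 3.1e-15) in astrocytes, 2.04 ± 0.12 (SE; edgeR adjusted p = 8.1e-16) in oligodendrocytes and 2.00 ± 0.13 (SE; edgeR adjusted p = 3.39e-14) in OPCs. In neurons the log2 fold was -2.01 ± 0.19 (SE; edgeR adjusted p = 2.04e-10) in the cholinergic class, -1.68 ± 0.17 (SE; edgeR adjusted p = 1.11e-09) in the Slc17a6 class and -1.12 ± 0.14 (SE; edgeR adjusted p = 7.98e-08) in the Gad class, where it was -0.94 with no filter on low counts.

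In astrocytes, 12 of 30 members were called, 4 higher and 8 lower, where 24.1% of all genes were called (12.4% higher and 11.7% lower). The median log2 fold of the members was -0.10, beside -0.02 over all genes. Cdh10 was at 906, 909, 816 and 814 CPM, above every library of the other 6 classes of the fit, with a log2 fold of 1.10 ± 0.08 (SE; edgeR adjusted p = 3e-13). That fold was 0.91 without the microglia class and 0.99 in the females alone. Pcdh10, a delta-2 protocadherin, was also higher, at 243, 262, 193 and 222 CPM and a log2 fold of 1.03, which was 0.89 without the microglia class. In that fit Cdh8 and Cdh12 were called lower in astrocytes, with log2 folds of -1.01 and -1.17.

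The 8 members lower in astrocytes were the type II members Cdh6, Cdh7, Cdh9 and Cdh18, the type I member Cdh4, Cdh13, Pcdh15 and Pcdha11. Pcdh15 was at 408, 226, 484 and 334 CPM in astrocytes, with a log2 fold of -1.74 ± 0.12 (SE; edgeR adjusted p = 4.1e-14). Cdh6 was at 15.9, 18.8, 40.6 and 20.6 CPM there, with a log2 fold of -1.71 ± 0.24 (SE; edgeR adjusted p = 3.35e-07). The neuron markers summed to 3074, 2171, 5027 and 5036 CPM in astrocytes, lower in both males than in both females. The part of neuronal transcripts in these astrocyte levels was not tested.

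**Figure D2:**
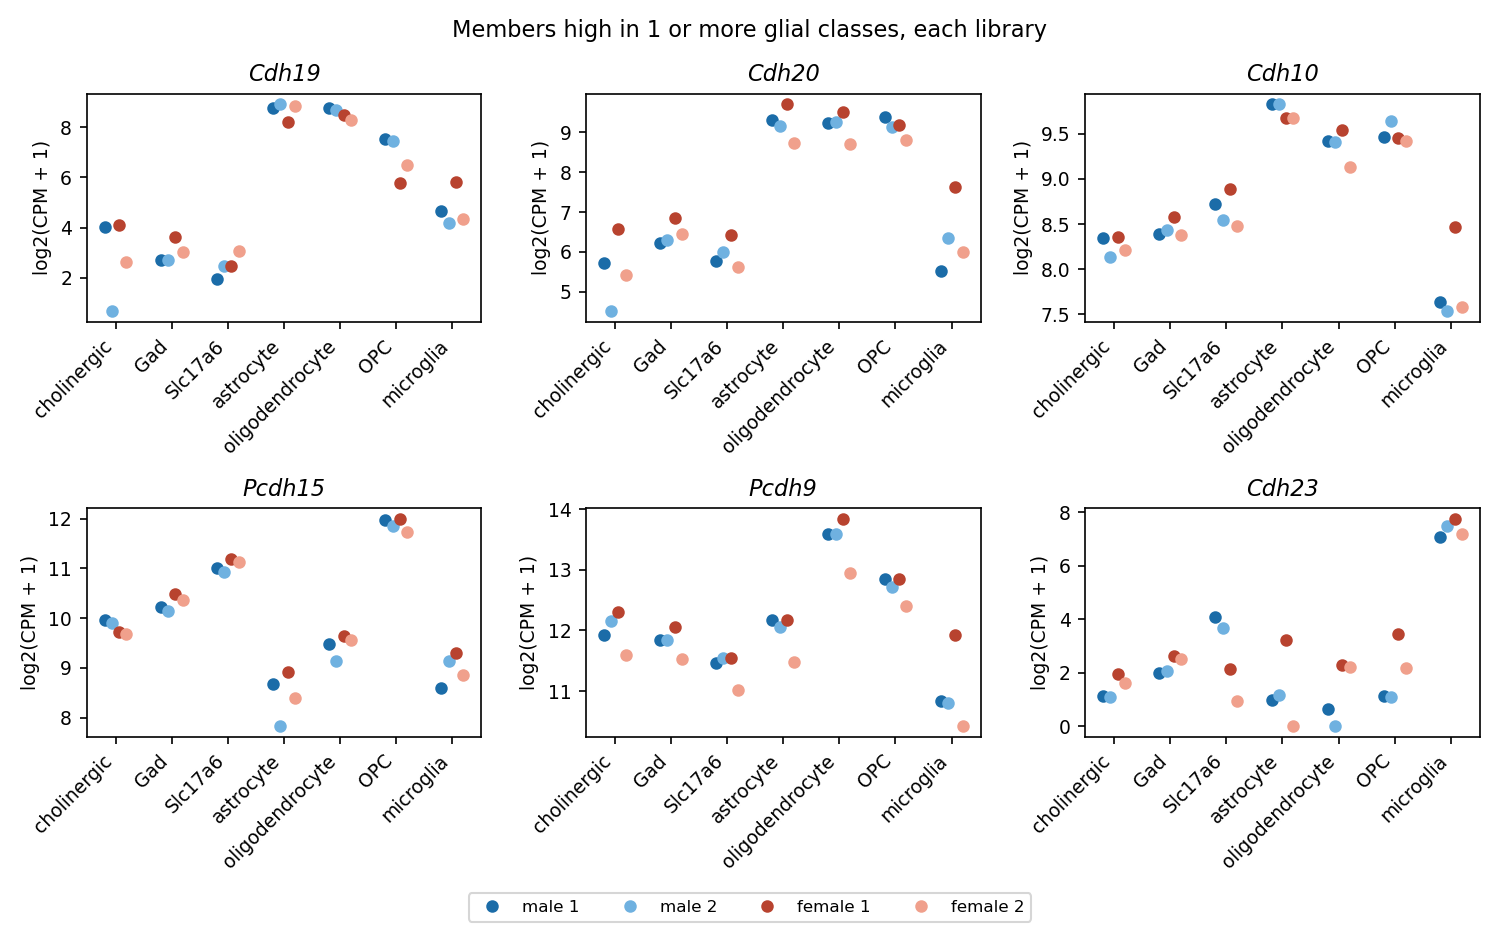
Levels of 6 members by class on a log2(CPM + 1) scale, one dot per library (colour by library). Cdh19 and Cdh20 are high in astrocytes, oligodendrocytes and OPCs, Pcdh15 is highest in OPCs, Pcdh9 in oligodendrocytes, and Cdh23 lies between 135 and 216 CPM in microglia and under 16 CPM elsewhere.

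In OPCs, the dividing precursors of oligodendrocytes, 10 of 30 members were called, 9 higher and 1 lower, where 13.0% of all genes were called (8.69% higher and 4.34% lower). The median log2 fold of the members was 0.67, beside -0.0014 over all genes. Pcdh15, best known as the tip-link protein of inner-ear hair cells, was at 4027, 3719, 4088 and 3407 CPM in OPCs. It was at 2052, 1933, 2327 and 2227 in Slc17a6 neurons and 1189, 1132, 1442 and 1316 in Gad nuclei. OPC libraries did not overlap with any other class, and the log2 fold was 2.21 ± 0.08 (SE; edgeR adjusted p = 3.07e-20). A long noncoding RNA of the opposite strand, Gm15398, lies within Pcdh15 and was at 176 CPM in OPCs and 205 in Slc17a6 neurons on the mean. Whether counting used the strand is not stated in the sources used here, so reads of the overlap could belong to either.

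Because Pcdh15 and the delta-2 member Pcdh8 were the only ones of 22 matched members whose 250-base promoter held TATAAA, the Pcdh15 window (RefSeq, GRCm38.p6) is shown, with that motif and CG dinucleotides in capitals.
Pcdh15, chr10:73821617-73821866, plus strand: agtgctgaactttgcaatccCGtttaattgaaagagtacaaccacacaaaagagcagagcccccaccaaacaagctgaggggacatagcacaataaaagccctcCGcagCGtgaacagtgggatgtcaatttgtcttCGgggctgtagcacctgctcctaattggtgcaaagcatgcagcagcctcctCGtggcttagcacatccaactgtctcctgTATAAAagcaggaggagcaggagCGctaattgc
The motif begins 33 bases before this RefSeq start, which lies inside the gene span of GENCODE, whose first base is 73099342. The window thus belongs to an internal start, and its use in these nuclei was not measured.

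The other members higher in OPCs came from several families. The delta-1 protocadherin Pcdh11x, an X-linked gene, was at 1336, 1234, 1014 and 1039 CPM, a log2 fold of 1.78. Cdh6, a type II member, was at 186, 203, 173 and 147 CPM with a log2 fold of 1.69. Cdh13, the cadherin that is held by a lipid anchor and has no cytoplasmic tail, was at 653, 638, 763 and 504 CPM with a log2 fold of 1.16. Cdh24, Pcdh20 and Pcdha11 were called at low levels, with mean levels of 13.3, 17.1 and 11.7 CPM. The lower member was Cdh9, with a log2 fold of -1.22 ± 0.24 (SE; edgeR adjusted p = 0.000119) that was -0.80 in the females alone.

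In oligodendrocytes, the myelinating glia, 4 of 30 members were called, 3 higher and 1 lower, where 12.9% of all genes were called (8.76% higher and 4.17% lower), a share close to that of the members. Pcdh9, a delta-1 protocadherin, was the most abundant member there, at 12290.5, 12415, 14701 and 7949 CPM. In OPCs it was at 7355, 6749, 7359 and 5418 CPM, and in microglia at 1818, 1783, 3897 and 1368. The lowest oligodendrocyte library, female 2, was above the highest OPC library, and the log2 fold was 1.68 ± 0.09 (SE; edgeR adjusted p = 2.43e-17). Pcdh17, a delta-2 member, was not called in oligodendrocytes, although 9630013A20Rik, an antisense transcript within it, was at 419 CPM there on the mean.

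The lower member in oligodendrocytes, Cdh23, was at 0.567, 0, 3.95 and 3.63 CPM, with 0 to 12 UMIs in a library. Its log2 fold of -1.81 was -0.95 without the microglia class, where it no longer passed the rule. That fit also called Cdh22 and Pcdha11 lower in oligodendrocytes (-1.07 and -1.24) and Cdh7 lower in OPCs (-1.09). Oligodendrocytes also held 5348, 4831, 5803 and 8248 CPM of the 4 neuron markers, and their part in the levels of neuronal members there was not tested.

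Microglia, the resident immune cells, had 12 of 30 members called, 1 higher and 11 lower, where 18.8% of all genes were called (11.6% higher and 7.2% lower). The median log2 fold of the members was -0.89, beside -0.06 over all genes. The member that was higher was Cdh23, which binds Pcdh15 in the hair-cell tip link. It was at 135, 178, 216 and 145 CPM in microglia, at 2.96, 3.20, 5.14 and 4.65 in Gad nuclei and at 15.9, 11.8, 3.44 and 0.906 in Slc17a6 neurons. No microglial library overlapped with another class, and the log2 fold was 5.39 ± 0.28 (SE; edgeR adjusted p = 3.08e-17).

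Within the Cdh23 gene (chr10:60302748-60696490, minus strand, GRCm38) lies Vsir, an immune checkpoint gene on the opposite strand (chr10:60346851-60372684). Vsir was at 223, 237, 129.7 and 169 CPM in microglia, and at a mean of 0.7 to 10.6 CPM in the other 6 classes. The deposited counts thus gave both genes in the same class, and how reads over their shared span were assigned is not stated in the sources used here. The Cdh23 level in microglia is uncertain for that reason.

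The 11 members lower in microglia included 2 classical cadherins seen widely elsewhere, Cdh2 (N-cadherin) and Cdh11, with log2 folds of -1.18 and -1.05. The delta-1 protocadherin Pcdh9 had a log2 fold of -1.45 ± 0.11 (SE; edgeR adjusted p = 1.38e-12). Pcdh7, Pcdh10 and Pcdh17 had log2 folds of -1.13, -1.07 and -1.12. Cdh10 and Cdh20 had -1.42 and -1.36. Pcdh15 had a log2 fold of -1.44, which was -0.99 with class thresholds 1 UMI higher. The 4 neuron markers stood at 5328, 5592, 7240.0 and 8747 CPM in microglia, and the part of neuronal transcripts in the microglial levels was not tested.

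Type II cadherins, 12 of the 30 tested members, made up 7 of 9 calls in Gad nuclei and 7 of 11 in Slc17a6 neurons. In Gad nuclei, the largest class, 9 of 30 members were called, 7 higher and 2 lower, where 13.8% of all genes were called (4.96% higher and 8.87% lower). In Slc17a6 neurons 11 of 30 were called, 9 higher and 2 lower, where 14.8% of genes were (5.42% higher and 9.34% lower). Cdh4, Cdh7, Cdh8, Cdh9, Cdh12, Cdh18 and Pcdha11 were higher in both. Without the microglia class Pcdha11 was called in neither, with log2 folds of 0.79 and 0.80, and Cdh12 was not called in Slc17a6 neurons, at 0.88. The median log2 fold of the members was 0.17 in Gad nuclei and 0.42 in Slc17a6 neurons, beside -0.04 and -0.06 over all genes. Since both classes were compared with means that hold 4 glial classes, these counts describe neurons against glia more than one neuron class against another.

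The RefSeq promoters of Cdh9 and Cdh18, which lie on chromosome 15 with Cdh6, Cdh10 and Cdh12, are shown beside that of Cdh7 above because these 3 genes were higher together in both neuron classes. Each is the 250 bases before the RefSeq start (GRCm38.p6), with CG dinucleotides in capitals.
Cdh9, chr15:16728665-16728914, plus strand: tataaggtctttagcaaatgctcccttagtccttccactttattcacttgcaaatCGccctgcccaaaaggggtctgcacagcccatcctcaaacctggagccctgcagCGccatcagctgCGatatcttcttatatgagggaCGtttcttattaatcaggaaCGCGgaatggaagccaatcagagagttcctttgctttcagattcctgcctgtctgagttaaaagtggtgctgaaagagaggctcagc
Cdh18, chr15:23036213-23036462, plus strand: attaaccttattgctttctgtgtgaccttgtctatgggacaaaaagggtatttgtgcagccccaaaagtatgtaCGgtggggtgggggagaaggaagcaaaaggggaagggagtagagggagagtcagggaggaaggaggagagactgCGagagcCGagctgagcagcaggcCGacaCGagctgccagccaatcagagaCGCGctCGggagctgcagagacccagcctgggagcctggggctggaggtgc
The Cdh18 window lies inside the gene span of GENCODE, whose first base is 22549022, and so belongs to an internal start, whose use in these nuclei was not measured. The Cdh9 window crosses the first base of its gene span in GENCODE, 16728756. The Cdh9 and Cdh18 windows held 6 and 8 CG dinucleotides, near the median of 6 over all windows, and no TATAAA on either strand. Cdh9 and Cdh10 are neighbours among the members of chromosome 15, with 1961.85 kb between them, and were opposite in astrocytes, where Cdh10 was higher and Cdh9 lower.

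Cdh18 was the most abundant of these members, at 1398, 1378, 1569 and 1460.5 CPM in Gad nuclei. It was at 1068, 1105, 1396 and 1472 in Slc17a6 neurons and 564, 593, 670.0 and 409.8 in cholinergic neurons. Every Gad and Slc17a6 library was above every cholinergic and glial library. Its log2 fold was 1.42 ± 0.11 (SE; edgeR adjusted p = 2.24e-12) in the Gad class and 1.20 in the Slc17a6 class.

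Cdh7 was at 95.1, 98.5, 101 and 92.3 CPM in Gad nuclei and 103, 111, 131 and 112 in Slc17a6 neurons, without overlap between those classes, and at 43.4, 38.9, 44.6 and 24.1 in cholinergic neurons. Its log2 fold was 1.31 ± 0.09 (SE; edgeR adjusted p = 1.21e-13) in Gad nuclei and 1.60 ± 0.10 (SE; edgeR adjusted p = 5.22e-14) in Slc17a6 neurons. Cdh9 had a log2 fold of 1.30 ± 0.11 (SE; edgeR adjusted p = 2.77e-11) in Gad nuclei, and Cdh8 one of 1.43 ± 0.12 (SE; edgeR adjusted p = 3.63e-11) in Slc17a6 neurons. Cdh4 (R-cadherin), of type I, was at 457, 454, 416 and 483 CPM in Gad nuclei and 473, 525, 449 and 562 in Slc17a6 neurons. Its log2 fold was 1.38 ± 0.08 (SE; edgeR adjusted p = 1.59e-14) in Slc17a6 neurons.

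**Figure D3:**
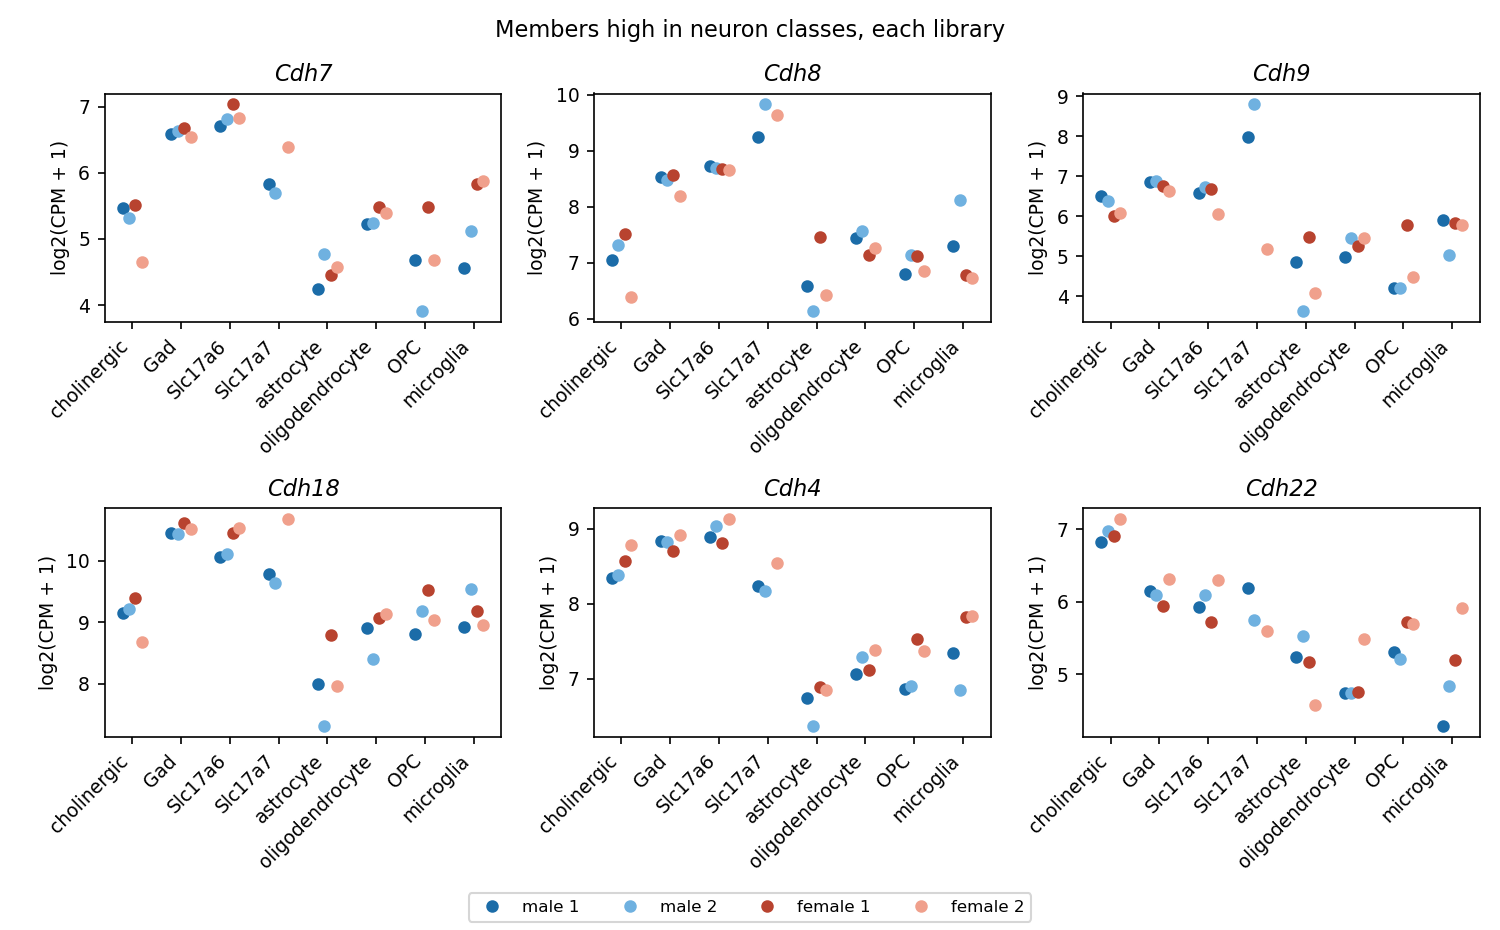
Levels of 6 members by class on a log2(CPM + 1) scale, one dot per library (colour by library). Female 1 is left out of the Slc17a7 class, where it had 2 nuclei. Cdh18 lies above 1000 CPM in every Gad and Slc17a6 library, and Cdh22 is highest in cholinergic neurons, between 112 and 140.4 CPM.

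When only the 3 neuron classes were compared, 46 members and 12944 genes were tested, and the pattern moved to the cholinergic and Slc17a6 classes. Of the 46, none was called in Gad nuclei, where 3.99% of genes were, although 17 had an adjusted p under 0.05, 20 an unadjusted one under 0.05 (34.5% of genes had one), and 2 were called with DESeq2. In Slc17a6 neurons 5 were called, 4 higher and 1 lower, where 4.38% of genes were called (2.34% higher and 2.04% lower). Pcdh11x was at 794, 729, 513 and 620.4 CPM in Slc17a6 neurons. It was at 451, 449, 419 and 393 in Gad nuclei and 120.5, 111, 115 and 83.8 in cholinergic neurons. The 3 classes did not overlap, and the log2 fold in Slc17a6 neurons was 1.62 ± 0.07 (SE; edgeR adjusted p = 5e-14). Pcdh18, Pcdh20 and Cdh23 were the other higher members, all at mean levels under 10 CPM, and Cdh23 had 72, 55, 3 and 1 UMIs.

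Slc17a7 neurons, tested over male 1, male 2 and female 2 on 36, 27 and 22 nuclei, had 5 of 31 tested members called, 3 higher and 2 lower, where 13.1% of genes were called (7.14% higher and 5.92% lower), a share close to that of the members. The higher ones were all type II cadherins. Cdh9 was at 249.7, 447 and 35.5 CPM in these libraries, a log2 fold of 2.68 ± 0.23 (SE; edgeR adjusted p = 1.04e-10), with female 2 well under both males. Cdh8 was at 603, 912 and 798 CPM, above every library of the 7 other classes, with a log2 fold of 2.21 ± 0.12 (SE; edgeR adjusted p = 1.03e-14). A same-strand transcript, Gm15680 (99397213 to 99506770), overlaps 1 end of Cdh8 (99024471 to 99416471) and extends beyond it. It was also highest there, at a mean of 126 CPM over 4 libraries, which include the 2 nuclei of female 1. Cdh11 had a log2 fold of 1.36 ± 0.15 (SE; edgeR adjusted p = 1.36e-08), which was 0.96 without male 2. The lower ones were again Cdh19 and Cdh20, with log2 folds of -2.69 ± 0.70 (SE; edgeR adjusted p = 0.00462) and -3.71 ± 0.37 (SE; edgeR adjusted p = 3.59e-09).

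Cholinergic neurons, the large projection cells of the basal forebrain, had 7 of 30 members called, 2 higher and 5 lower, where 15.0% of all genes were called (5.88% higher and 9.16% lower). Cdh22, a type II cadherin, was at 112, 125, 119 and 140.4 CPM in cholinergic neurons and at 70.0, 67.5, 60.4 and 78.8 in Gad nuclei. The classes did not overlap, and the log2 fold was 1.60 ± 0.10 (SE; edgeR adjusted p = 2.9e-14). Cdh6 was at 88.5, 107, 136 and 167 CPM in cholinergic neurons, above every Gad and Slc17a6 library and overlapping with OPCs. Its log2 fold was 1.15 ± 0.14 (SE; edgeR adjusted p = 5.15e-08), which was 0.98 without female 2 and 0.96 in the males alone.

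The members lower in cholinergic neurons were Cdh19, Cdh20, Cdh23, Pcdh11x and Pcdh20. Without the microglia class Cdh23 was not called, with a log2 fold of -1.06 (edgeR adjusted p = 0.285). Pcdh11x had a log2 fold of -2.10 ± 0.11 (SE; edgeR adjusted p = 9.86e-17). Against the other neuron classes alone, 9 of 46 members were called in cholinergic neurons, 2 higher and 7 lower, where 8.68% of genes were called (3.98% higher and 4.7% lower). Cdh8 was at 131, 158, 182 and 82.8 CPM in cholinergic neurons and 422, 410.0, 408 and 402 in Slc17a6 neurons, with a log2 fold of -1.38 ± 0.09 (SE; edgeR adjusted p = 6.09e-11). Pcdh11x had a log2 fold of -2.24 ± 0.09 (SE; edgeR adjusted p = 3.08e-15) in that comparison. Cdh7 and Cdh18 had -1.35 and -1.19.

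Cdh3 (P-cadherin), a type I member known mainly from epithelia, was scarce and had its highest level in cholinergic neurons, and is named after its values were seen. It was at 4.22, 9.15, 12.3 and 10.5 CPM, and over the 4 libraries 46 of its UMIs lay in cholinergic neurons, or 8.49 CPM of their summed UMIs. Gad nuclei held 36 UMIs, or 0.238 CPM, which made the cholinergic level 35.7 times higher (95% exact interval 22.6 to 56.8, for counting error only). Slc17a6 neurons held 0 UMIs, and set against a floor of 3 UMIs over the 4 libraries the cholinergic level was at least 31.6-fold higher. Astrocytes, OPCs and microglia also held 0 UMIs, and the same bound was 8.37-fold, 8.68-fold and 5.60-fold.

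Within the Gad class, the share of tested members called was 2.38% in Drd1, 2.38% in Drd2, 9.52% in Moxd1 and 2.17% in Sst nuclei. Over all genes it was 1.45%, 2.49%, 3.32% and 0.986% in that order, so the Drd2 share was near that of all genes. The called members at 10 CPM or more were the type II cadherins Cdh7, Cdh9, Cdh12 and Cdh20 and, in Sst nuclei, Cdh13. The subclasses were drawn by UMIs of Drd1, Drd2, Moxd1 or Sst and compared with the remaining Gad nuclei. The fit tested 42 members and 12997 genes. Drd2 nuclei, which carry the dopamine receptor of the indirect striatal pathway, had 1 member called, where 2.49% of genes were (1.63% higher and 0.862% lower). It was Cdh9, at 228, 234, 181 and 158 CPM against 104, 107, 102 and 97.7 in the remaining Gad nuclei, without overlap. The log2 fold was 1.09 ± 0.09 (SE; edgeR adjusted p = 4.83e-11), and it was 1.00 without male 2, just under the fold limit, and 0.80 in the females alone.

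Drd1 nuclei, marked by the receptor of the direct pathway, also had 1 member called, where 1.45% of genes were (0.785% higher and 0.669% lower). It was Cdh12, lower at 105, 121, 23.9 and 81.2 CPM against 209, 225, 209 and 204 in the remaining Gad nuclei, again without overlap. The log2 fold of Cdh12 was -1.04 ± 0.12 (SE; edgeR adjusted p = 2.14e-07). Without female 1, where the Drd1 subclass had 21 nuclei and Cdh12 had 4 UMIs, it was -0.98, and without female 2 it was -0.96.

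Moxd1 nuclei had 4 members called, 2 higher and 2 lower, where 3.32% of genes were called (1.75% higher and 1.57% lower). Moxd1 encodes a monooxygenase-like protein. Cdh20, high in glia, was the abundant one of the higher members, at 185, 173, 345 and 296 CPM against 70.5, 73.1, 113 and 79.9 in the remaining Gad nuclei. The groups did not overlap, and the log2 fold was 1.49 ± 0.11 (SE; edgeR adjusted p = 1.19e-12). Cdh7 was lower, at 50.6, 44.6, 31.6 and 44.1 CPM against 90.1, 98.3, 101 and 89.8, with a log2 fold of -1.04 ± 0.11 (SE; edgeR adjusted p = 8.13e-09) that was -0.97 without female 1. Cdh20 and Cdh7, chromosome 1 neighbours, were thus called in opposite directions within one neuron class as well. Pcdh18, with 67 UMIs in Moxd1 nuclei, was called higher and Cdh23 lower, both at means under 10 CPM.

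No member was called between Drd1 and Drd2 nuclei by edgeR at a fold limit of 1, where 0.9% of genes were, while 7 had an adjusted p under 0.05 at smaller folds, 12 an unadjusted p under 0.05 (14.6% of genes had one), and 1 was called with no filter on low counts. Cdh9, Cdh12, Cdh4 and Cdh11 were lower in Drd1 than in Drd2 nuclei among those 7, with log2 folds of -0.88, -0.65, -0.52 and -0.48. Pcdh10, Pcdh7 and Pcdh15 were higher in Drd1 nuclei, with log2 folds of 0.43, 0.41 and 0.41. For Pcdh15 this held in the females but not in both males. Its Drd1 and Drd2 levels were 866 and 799 CPM in male 1 and 773 and 783 in male 2. They were 1268 and 675 in female 1 and 1384 and 640 in female 2. Sst nuclei, over 3 libraries, had 1 of 46 tested members called, where 0.986% of genes were (0.601% higher and 0.385% lower). It was Cdh13, lower with a log2 fold of -1.03 ± 0.20 (SE; edgeR adjusted p = 0.00272), which was -0.73 without male 2.

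**Figure D4:**
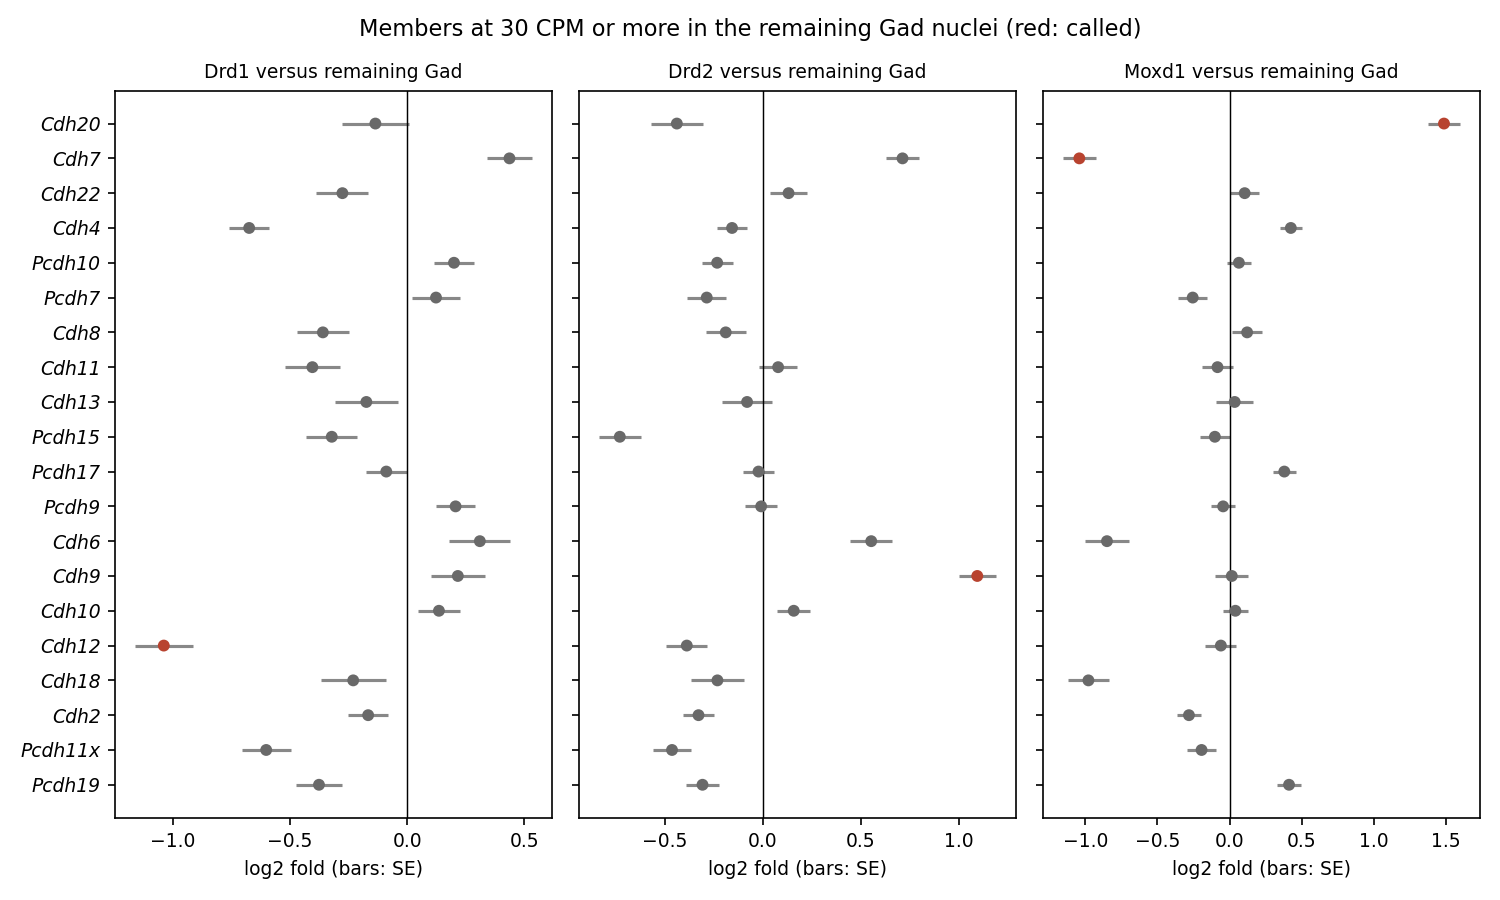
Log2 fold (± SE of the edgeR fit) of the members at 30 CPM or more in the remaining Gad nuclei, in Drd1, Drd2 and Moxd1 nuclei against the remaining Gad nuclei; red points passed the call rule. Cdh12 is called in Drd1 nuclei, Cdh9 in Drd2 nuclei, and Cdh20 and Cdh7 in opposite directions in Moxd1 nuclei.

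Other members were present in every class and differed by less than the fold limit outside microglia. Cdh2 (N-cadherin), the type I cadherin of most neural cells, was at 524, 524, 483 and 388 CPM in astrocytes, 369, 356, 473 and 357 in Slc17a6 neurons and 281, 255, 283 and 241 in OPCs. Every astrocyte library was above every OPC library, and the log2 fold in astrocytes was 0.83. The delta-1 protocadherin Pcdh7 was at 1737, 1725, 1536 and 1481 CPM in Gad nuclei and 811, 695, 843 and 873 in oligodendrocytes, without overlap, with log2 folds of 0.63 and -0.57. Pcdh17 was highest in OPCs, at 341, 323, 337 and 278 CPM, where its log2 fold was 0.84. Pcdh19, the X-linked delta-2 member whose loss in humans is known as a cause of epilepsy, was at 107, 106, 108 and 79.5 CPM in Gad nuclei and 55.6, 47.2, 49.0 and 44.7 in oligodendrocytes. The Pcdh19 log2 fold was 0.73 in Gad nuclei and 0.76 in Slc17a6 neurons. These log2 folds all had an edgeR adjusted p under 0.05 and were smaller than 1 in size.

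The clustered protocadherins were spread thinly over single genes, and their summed level was highest in OPCs. The sum of all 57 was 225, 233, 135 and 206 CPM in OPCs and 139, 138, 107 and 124 in Gad nuclei. The OPC sum was the highest of the 7 classes within each of the 4 libraries. In each of the 7 classes the sum of female 1 was the lowest of the 4 libraries. Its gene list held 55357 genes, against 33696 in male 1, 33696 in male 2 and 32285 in female 2. The part of the gene list in these sums was not tested. The 22 Pcdhb genes summed to 105, 114, 57.8 and 75.2 CPM in OPCs and 32.7, 27.5, 20.4 and 41.6 in microglia. The 14 Pcdha genes summed to 24.1, 24.7, 17.4 and 19.5 CPM in Gad nuclei, 23.3, 25.0, 13.7 and 20.8 in Slc17a6 neurons and 2.98, 6.28, 9.80 and 13.7 in astrocytes. The 21 Pcdhg genes summed to 78.4, 109, 61.6 and 107 CPM in astrocytes and 46.4, 50.9, 44.6 and 57.6 in cholinergic neurons. These sums are descriptions, with no test.

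**Figure D5:**
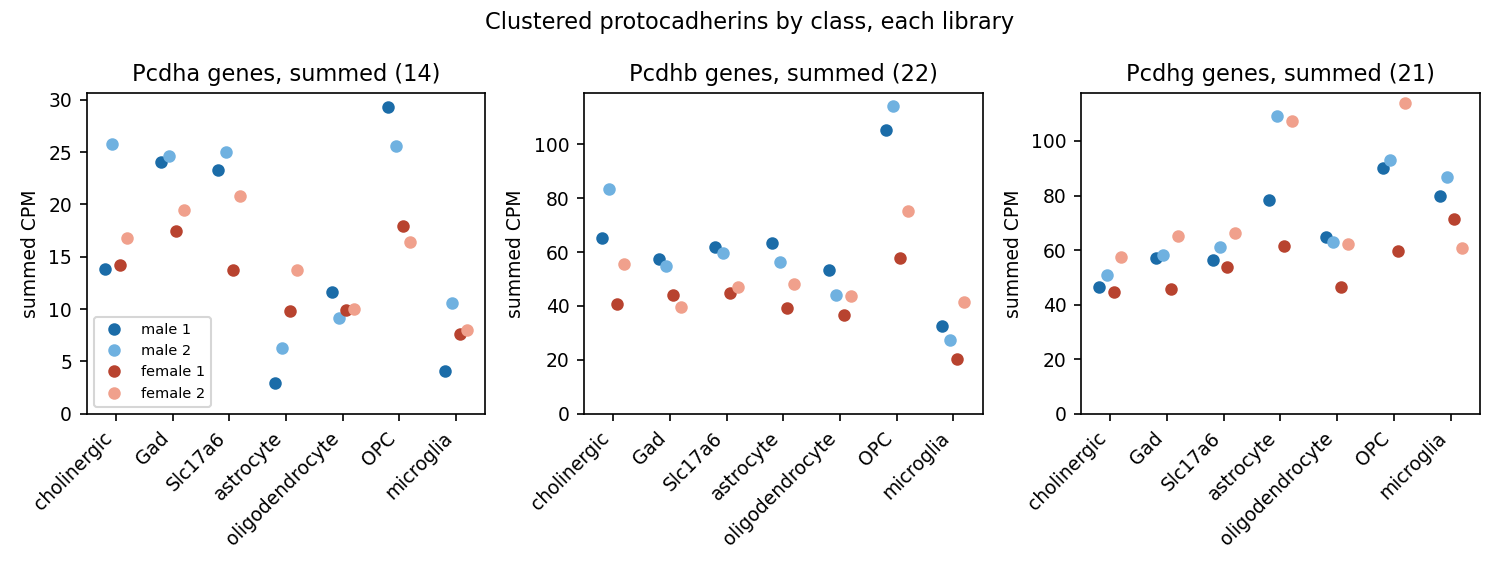
Summed levels (CPM) of the 14 Pcdha, 22 Pcdhb and 21 Pcdhg genes by class, one dot per library. Pcdha sums are higher in the neuron classes and OPCs than in astrocytes, and Pcdhb sums are lowest in microglia on the mean.

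Single clustered genes had a median of 213 UMIs over the 7 classes for Pcdha, 226 for Pcdhb and 450 for Pcdhg, and 4 of the 57 passed the filter on low counts. Pcdha11 was called higher in Gad, Slc17a6 and OPC nuclei and lower in astrocytes, with log2 folds of 1.02, 1.05, 1.56 and -2.04. The Gad and Slc17a6 calls were lost without the microglia class, as given above. Pcdhb14 and Pcdhgc4 were called lower in microglia, and Pcdhga12 in no class. The 14 Pcdha genes end within 4 bases of one another and the 21 Pcdhg genes within 3, since each cluster shares its last exons. Reads of a 3′ library from a shared end cannot be told apart between the genes, so values of single Pcdha and Pcdhg genes are uncertain. Whether such reads were counted or dropped was not tested, so the Pcdha and Pcdhg sums are uncertain as well. The identifier called Pcdha10 in 3 gene lists is called Pcdha11 in that of female 2, which also lists the Pcdha11 identifier used here, and genes were joined by identifier.

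Several members with known roles outside the brain parenchyma were at the limit of detection in the 7 classes. Cdh5 (VE-cadherin), of endothelium, had 16 UMIs in all, and Cdh1 (E-cadherin), of epithelium, had 7. Cdh16, a kidney cadherin, had 8 UMIs, and Cdh17, an intestinal one, had 4. Cdh15 (M-cadherin), of muscle, had 188 and Cdh26 had 21. Pcdh12, known from endothelium, had 3, the lowest of all members, and none of the 92 had 0. At this depth these counts set no order among the classes.

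Nuclei were thinned to 2000 UMIs each, so that each kept nucleus had the same weight, leaving out shallower nuclei. The highest class stayed the same for 24 of the 31 members with at least 1000 UMIs. It changed for Cdh4, Cdh20, Pcdh1, Pcdhb14, Pcdhb19, Pcdhga12 and Pcdhgc4, and for Cdh20 it moved from astrocytes to oligodendrocytes. An OPC then held UMIs of 9.70, 9.60, 9.72 and 8.98 members on the mean in the 4 libraries, and a Gad nucleus of 7.81, 7.78, 8.06 and 7.49. Thinning left out 5, 7, 30 and 105 of the OPCs and 2, 2, 53 and 34 of the Gad nuclei. It left out 398 of 1016, 428 of 954, 721 of 1204 and 936 of 1387 oligodendrocytes. Of the microglia it left out 88 of 165, 65 of 149, 116 of 168 and 194 of 274. Since the classes lost nuclei unequally, changes of the highest class cannot be assigned to depth alone.

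Among genes that act with cadherins, catenins were counted in the same fit, beside the share of all genes called. Of 9 catenins, 8 were tested, and the counts here describe a list chosen with earlier results of these data known. In cholinergic neurons (15.0% of genes called) 1 was higher and 1 lower, with Ctnna2, the neuronal alpha-catenin that links cadherins to actin, at a log2 fold of 2.30. In astrocytes (24.1%) 2 were higher and 3 lower, with Ctnna1 at 1.81, and in oligodendrocytes (12.9%) 3 were higher and 1 lower, with Ctnna3 at 2.22. In microglia (18.8%) 1 was higher and 3 lower, in Slc17a6 neurons (14.8%) 0 were higher and 2 lower, and in OPCs (13.0%) 0 were higher and 1 lower. Gad nuclei (13.8%) had 0 higher and 0 lower. Of 12 other cadherin superfamily genes (Fat, Dchs, Celsr and Clstn genes) 10 were tested. In cholinergic neurons 3 were higher and 1 lower, with Clstn2, a calsyntenin, at a log2 fold of 2.39, and in microglia none was higher and 2 were lower, a share near the 18.8% of genes called there. In astrocytes (24.1%) 0 were higher and 3 lower, and in oligodendrocytes (12.9%) 0 were higher and 1 lower. Gad nuclei (13.8%), Slc17a6 neurons (14.8%) and OPCs (13.0%) each had 1 higher and 0 lower. Of 12 genes of the WAVE complex, an actin regulator bound by delta protocadherins, and of protocadherin regulators, 3 were higher and 2 lower in microglia (18.8% of genes called), with Wasf2 at 2.80. In astrocytes (24.1%) 2 of them were higher and 1 lower. Gad nuclei (13.8%) and Slc17a6 neurons (14.8%) each had 0 higher and 1 lower. Cholinergic neurons (15.0%), oligodendrocytes (12.9%) and OPCs (13.0%) had 0 in either direction.

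No member passed the test between males and females in any class. The tests covered 445 pairs of a member and a class over 11 classes and subclasses, and 0 passed by edgeR or by DESeq2, while 41 had an unadjusted p under 0.05. Between 8.47% and 16.0% of all genes had such a p in these classes. In Gad nuclei 82 members were tested and 5 had an unadjusted p under 0.05, where 16.0% of genes did, and 0.00545% of all genes were called there. The share of all genes called was 0.0498% in cholinergic, 0.0654% in Slc17a6, 0.0554% in astrocyte, 0.023% in oligodendrocyte, 0.095% in OPC and 0.05% in microglial nuclei. It was 0.505% in Drd1, 0.062% in Drd2, 0.198% in Moxd1 and 0.00557% in the remaining Gad nuclei. At 2 against 2 libraries an exact permutation test of a single value cannot give a p under 0.333. Without female 1, 158 pairs were called and without female 2, 145, in fits where the lone female library is assumed to vary as the males do. The cause of these changes was not tested.

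The pairs with the smallest unadjusted p were Cdh19 in OPCs, Cdh20 in Moxd1 nuclei and Cdh23 in Slc17a6 neurons. Cdh19 in OPCs was at 186, 172, 53.8 and 90.4 CPM, higher in both males than in both females, with a log2 difference, male minus female, of 1.34 ± 0.29 (SE; edgeR adjusted p = 0.188). Cdh20 in Moxd1 nuclei was at 185, 173, 345 and 296 CPM, lower in both males, with a difference of -0.81 ± 0.20 (SE; edgeR adjusted p = 0.137). Cdh23 in Slc17a6 neurons was at 15.9, 11.8, 3.44 and 0.906 CPM, higher in both males on 3 and 1 UMIs in the females, with a difference of 2.78 ± 0.62 (SE; edgeR adjusted p = 0.245). 

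Among members at 10 CPM or more, the male and female libraries did not overlap for 11 of 23 in Gad nuclei, where the same held for 49.5% of all genes. The counts were 6 of 24 in cholinergic neurons (41.8% of all genes), 10 of 22 in Slc17a6 neurons (46.0%), 11 of 24 in astrocytes (38.4%) and 12 of 23 in oligodendrocytes (42.7%). They were 15 of 28 in OPCs (39.0%) and 8 of 24 in microglia (41.9%). In the Gad subclasses they were 7 of 23 in Drd1 (40.6%), 14 of 22 in Drd2 (43.7%), 13 of 23 in Moxd1 (45.6%) and 13 of 23 in the remaining Gad nuclei (49.4%). In Gad nuclei, cholinergic neurons, Slc17a6 neurons, microglia and Drd1 nuclei the members' share was thus at or below that of all genes. Library depth differed between the sexes in the same way, and its part in these counts cannot be told apart from sex.

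Whether a difference between classes itself differed by sex was tested by an interaction term. For Drd1 minus Drd2 nuclei, 2 of 42 members passed an edgeR adjusted p of 0.05, where 0.0923% of genes did, and these were Cdh13 and Pcdh15. For Gad minus Slc17a6 nuclei, 1 of 30 passed, where 0.0322% of genes did, and this was Cdh23. None of these calls was made without male 1, without male 2 or without female 2, and their values are given with the results set aside for a closer look.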

How the data were processed

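The submitters' processing notes name Cell Ranger 6.0.1, Seurat 5 and the mouse build mm10, whereas the file headers name Cell Ranger 9.0.1 (both males), 7.0.0 (female 1) and 7.2.0 (female 2). The authors deposited whole-number UMI counts per gene and barcode, not normalized. The kit and the use of introns and strand in counting are not given clearly in the sources used here.

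Nuclei with 500 to 8000 genes and under 5% mitochondrial counts were kept, and classed by at least 2 UMIs of the classing genes (3 for Sst). Nuclei of several classes were dropped, and those of none were not used. Scrublet's automatic threshold marked at most 0.0109% of a library and had not worked, so no further doublets were removed in the main analysis; removing the highest scores (0.8% per 1000 barcodes) was an alternative. Counts were summed per library and class with at least 20 nuclei in each library. The sums were tested with edgeR 4.0.16 in R 4.3.3 (TMM scaling, filterByExpr, quasi-likelihood test, two-sided) with class and library as terms, or sex alone within a class, and each test script was checked on simulated data. Alternatives were median-ratio size factors, no filter, DESeq2 1.42.0, each library left out, thresholds 1 UMI higher, one sex alone, no fold limit and a replicate block. Fits of the neuron classes alone, without microglia, and of Slc17a7 and Sst nuclei over 3 libraries were added after the data were seen. The planned interaction used Slc17a6 nuclei alone, since Slc17a7 nuclei were too few in female 1.

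The members and lists were chosen with earlier results of these data known. Full statistics are given for up to 3 called members with the largest log2 fold above 0 and 2 below 0 in a comparison, at 10 CPM or more on the higher side, and for up to 3 members per class with the smallest p between sexes. Gene coordinates are from GENCODE mouse release 21 and promoters from RefSeq, matched by symbol for 22 members. Intervals and floors cover counting error only. Replicate numbers do not pair the samples.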

Additional observations from a re-analysis of the deposited data

Results flagged for a closer look

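Of the members, 3 passed the edgeR test of the interaction, which asks whether a pair of classes lay apart by a different amount in each sex. These calls depended on which libraries were in the fit, as given above, and DESeq2 did not make all of them. Cdh13 between Drd1 and Drd2 nuclei had an interaction, male minus female, of 1.09 ± 0.23 (SE; edgeR adjusted p = 0.0407) on the log2 scale. Its Drd1 and Drd2 levels were 468 and 398 CPM in male 1, 510.0 and 378 in male 2, 496 and 443.7 in female 1, and 273 and 672 in female 2. Drd1 was above Drd2 in 3 libraries, and female 2 alone went the other way.

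Pcdh15 between the same subclasses had an interaction of -0.92 ± 0.15 (SE; edgeR adjusted p = 0.0103). Its Drd1 and Drd2 levels were 866 and 799 CPM in male 1, 773 and 783 in male 2, 1268 and 675 in female 1, and 1384 and 640.5 in female 2. Both females had Drd1 far above Drd2, and in the males the subclasses were close. The Drd1 subclass held 21 nuclei in female 1 and 57 in female 2.

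Cdh23 between Gad and Slc17a6 nuclei had an interaction of -3.43 ± 0.62 (SE; edgeR adjusted p = 0.0244). It had 72 and 55 UMIs in the Slc17a6 nuclei of the males and 3 and 1 in those of the females, while its Gad level was 2.96, 3.20, 5.14 and 4.65 CPM. Vsir lies on the opposite strand within Cdh23. The part of depth in these 3 interactions was not tested.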

How the results depend on the processing

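Of 44 results for named members between classes, all kept their direction, 455 values under the alternatives stayed on their side of the call rule and 24 fell below it. Of 33 between sexes, 269 stayed below the threshold and 42 passed it. With no fold limit, calls numbered 16 (cholinergic), 19 (Gad), 18 (Slc17a6), 22 (astrocyte), 21 (oligodendrocyte), 20 (OPC) and 21 (microglia); among neuron classes 25 (cholinergic), 17 (Gad) and 16 (Slc17a6); and 7 (Drd1), 12 (Drd2), 10 (Moxd1), 7 (Drd1 versus Drd2), 15 (Slc17a7) and 5 (Sst). With no filter, which tests more genes, calls were 14 (Gad), 20 (OPC), 1 (Gad among neurons), 1 (Drd1 versus Drd2), 2 (Sst) and 5 (sex). Without the highest Scrublet scores they were 11 (cholinergic), 7 (oligodendrocyte) and 2 (Gad among neurons), and with higher class thresholds 1 (Gad among neurons). The males alone gave 16 (OPC) and 0 (Drd1), and the females alone 6 (OPC), 3 (Slc17a6 among neurons) and 1 (Drd1 versus Drd2). DESeq2 gave 2 (Gad among neurons), 1 (interaction Drd1 minus Drd2) and 0 (interaction Gad minus Slc17a6), and median-ratio size factors 1 (interaction Drd1 minus Drd2). Leaving out each library in turn gave 0 to 1 (Gad among neurons), 3 to 5 (Slc17a6 among neurons), 0 to 1 (Drd1), 0 to 2 (Drd2), 0 to 1 (Drd1 versus Drd2), 0 to 2 (Sst), 0 to 158 (sex), 0 to 5 (interaction Drd1 minus Drd2) and 0 to 1 (interaction Gad minus Slc17a6). The highest class after thinning was the reported one for 24 of 31 members. The cause of these changes was not tested. With the replicate block, 1 pair was called between sexes; same-numbered libraries had a correlation of deviations of 0.216 over 2 pairs, so the numbers only name libraries. Thresholds and Scrublet removal left 10 of the 11 classes for the sex test. Depth was lower in the females, and its part in the results for low members was not tested. The females differed from each other far more than the males (chi-square per degree of freedom 81.6 against 2.49 in Gad nuclei).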

Other observations

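Cdh2 (N-cadherin), a type I member found in most classes, was at 223, 225, 579 and 217 CPM in oligodendrocytes, where female 1 alone stood above the other libraries. It was not called in oligodendrocytes, and the value was noticed after the data were seen.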
